A study of Mus musculus with 6 samples.

Results

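Integrins are the adhesion receptors with which T cells grip vessel walls, target cells and tissue matrix. The genes described here encode 8 integrin subunits of T cells, Itgae, Itgal, Itga1, Itga4, Itgav, Itgb1, Itgb2 and Itgb7, out of 19929 genes named on the arrays. They were chosen by name, with earlier results of these data known, and each was read from its only probe with a single gene symbol. Of the 8 members, 7 were bright enough to be tested, and Itga1 was not.

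RNA came from CD8 T cells that carry the AI4 receptor, a transgenic T cell receptor for a beta cell antigen, sorted from pancreas with an antibody to CD8 and the MimA2/H-2Db tetramer. The 3 Rip-B7xAI4 arrays came from mice resistant to type 1 diabetes and the 3 AI4 arrays from mice that developed it. Both groups carry AI4 on a C57BL/6.H2g7/g7 background, and Rip-B7xAI4 mice also carry Rip-B7x, which places the inhibitory ligand B7x under the rat insulin promoter and so in beta cells. Pancreata were pooled before sorting, the sources used here give neither the age of the mice nor the number pooled, and genotype and disease outcome cannot be told apart. Replicates are labelled as biological.

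An integrin is a pair of 1 alpha and 1 beta subunit, and the pair decides the ligand. Itgal with Itgb2 forms LFA-1, which binds ICAM-1 and holds the T cell to its target. Itga4 with Itgb1 forms VLA-4, which binds VCAM-1 and fibronectin, and Itga4 with Itgb7 binds MAdCAM-1 of gut vessels. Itgae (CD103) with Itgb7 binds E-cadherin of epithelium, Itga1 with Itgb1 binds collagen, and Itgav, which can also pair with Itgb1, takes part in binding vitronectin and fibronectin and in the activation of TGF-beta.

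The sorted cells carried T cell transcripts at high levels in every array. The mean of 10 measured T cell identity genes lay between 9.57 and 10.29 log2 in Rip-B7xAI4 and between 9.65 and 10.30 in AI4, while array medians over all probes were 5.94 to 6.10. Cd8a was at 9.71, 10.42 and 9.21 in Rip-B7xAI4 and at 10.89, 10.43 and 10.10 in AI4, and Cd3e at 11.19, 11.01 and 10.65 in Rip-B7xAI4 and at 9.11, 10.50 and 10.59 in AI4. Cd4 lay between 5.47 and 6.24 in Rip-B7xAI4 and between 5.49 and 5.89 in AI4. Markers of myeloid cells set a pair of arrays apart on average, while the marker means of NK cells and of stroma and endothelium separated all arrays of the groups. Averaged over 24 markers, the myeloid level stood at 8.18, 5.99 and 8.60 in replicates 1, 2 and 3 of Rip-B7xAI4 and at 5.89 to 6.27 in AI4, with 23 of the 24 higher on average in Rip-B7xAI4. Of the 21 tested myeloid markers, 2 separated the groups, Cd68 and Cd74, and the others overlapped. For these 2, replicate 2 of Rip-B7xAI4 also lay above every AI4 array, by 0.86 and 0.26. The mean of 7 neutrophil markers was 8.48, 5.68 and 7.80 in the same Rip-B7xAI4 order and 5.46 to 5.53 in AI4, so that replicate 2 also lay above AI4, with 6 of the 7 higher. No marker is listed at 0. Lyz2 was at 11.40, 5.59 and 9.64 in Rip-B7xAI4, and at 7.36, 4.73 and 7.57 in AI4. The mean of 7 NK markers was 5.56, 5.60 and 5.88 in Rip-B7xAI4 and 4.90 to 4.95 in AI4, with all 7 higher on average in Rip-B7xAI4. Of the 7, 5 were dim and not tested. Single markers differed in pattern: Fcer1g, Klrb1c, Klre1 and Klri2 separated the groups and Eomes overlapped. Ncr1 was at 4.43, 4.42 and 5.86 in Rip-B7xAI4, against 4.60, 4.87 and 4.56 in AI4, higher only through replicate 3. The part of the NK markers in the results on integrins was not tested. Means for B cells were 5.93 to 6.70 in Rip-B7xAI4 and 5.85 to 6.38 in AI4, and those for acinar cells 5.87 to 6.03 and 6.02 to 6.09 in the same order. Islet marker means were 5.52 to 5.87 in Rip-B7xAI4 and 5.76 to 6.06 in AI4, and those of stroma and endothelium 5.23 to 5.53 and 5.61 to 5.88. Of the stroma and endothelium markers, Pecam1 averaged 6.91 in Rip-B7xAI4 and 7.96 in AI4, with groups 0.27 apart. Pdgfrb separated the groups by a narrow margin, and the other measured markers of this list overlapped. Whether the mean separates the groups without Pecam1 was not tested. Means of 3 platelet markers were 4.93 to 6.85 in Rip-B7xAI4 and 5.18 to 5.87 in AI4, and those of CD4 and regulatory T cells 6.34 to 6.46 and 6.34 to 6.47. Rip-B7xAI4 replicates 1 and 3 are called the myeloid-high arrays below, and results are given also with both left out. The fit then takes the spread of the lone Rip-B7xAI4 array to be that of AI4. That array, replicate 2, exceeded every AI4 array in Cd68, Cd74 and the neutrophil and NK marker means. Leaving the other arrays out therefore does not remove these signals, and their part in the results on integrins was not tested.

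Upstream sequence was held by the RefSeq promoter table (GRCm38.p6) for 5 of the 8 members. The 250 bases before the listed start are shown for 4 of them, namely Itgb1 and Itgav, whose values separated the groups, and Itga4 and Itgb7, whose values did not. Capitals mark matches, on either strand, to the GC box GGGCGG or to the Runx core TGTGGT. The Itgb1 window is chr8:128685404-128685653 (plus strand), Itgav chr2:83724147-83724396 (plus), Itga4 chr2:79255176-79255425 (plus) and Itgb7 chr15:102231936-102232185 (minus).
Itgb1: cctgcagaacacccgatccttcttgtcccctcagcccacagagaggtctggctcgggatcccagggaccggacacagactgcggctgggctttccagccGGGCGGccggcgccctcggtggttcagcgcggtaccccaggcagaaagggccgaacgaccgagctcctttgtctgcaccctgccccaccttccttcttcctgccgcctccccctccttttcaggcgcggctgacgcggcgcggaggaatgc
Itgav: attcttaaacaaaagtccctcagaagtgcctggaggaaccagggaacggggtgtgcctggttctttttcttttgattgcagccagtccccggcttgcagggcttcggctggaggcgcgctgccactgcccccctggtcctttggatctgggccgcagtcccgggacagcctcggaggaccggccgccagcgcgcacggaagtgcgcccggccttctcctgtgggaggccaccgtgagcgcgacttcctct
Itga4: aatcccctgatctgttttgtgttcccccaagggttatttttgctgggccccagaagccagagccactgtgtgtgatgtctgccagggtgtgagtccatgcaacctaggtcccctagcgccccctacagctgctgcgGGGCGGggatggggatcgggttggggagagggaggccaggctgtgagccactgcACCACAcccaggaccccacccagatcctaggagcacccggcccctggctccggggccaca
Itgb7: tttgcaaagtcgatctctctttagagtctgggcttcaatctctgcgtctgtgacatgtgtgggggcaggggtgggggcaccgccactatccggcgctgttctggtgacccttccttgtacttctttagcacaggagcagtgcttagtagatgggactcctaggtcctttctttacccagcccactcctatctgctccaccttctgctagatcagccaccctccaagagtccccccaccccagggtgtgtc
The Itgb1 and Itga4 windows each held 1 GC box, which 32.7% of all 32851 windows of this length hold. The Itga4 window held 1 Runx core, read as ACCACA, which 14.0% of windows hold. The Itgav and Itgb7 windows held neither, and none of the 4 held the ETS letters CCGGAA (12.0% of windows) or the TATA letters TATAAA (12.4%). G and C made up 68.0% of the Itgb1 window, 64.4% of Itgav, 64.0% of Itga4 and 56.0% of Itgb7.

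The comparison asks how the adhesion receptors of AI4 T cells in the pancreas differ when beta cells carry B7x. In every Rip-B7xAI4 array the RNA of the shared beta subunit Itgb1 lay above every AI4 array, with a mean 3.59-fold the AI4 mean, and the same held for the LFA-1 alpha subunit Itgal (2.54-fold) and for Itgav (1.60-fold). Itgb2 averaged 1.76-fold the AI4 level with groups that almost touched. Itgb7 and Itga4 overlapped between the groups, and Itgae was the member with the lowest fold, at 0.585. By limma, 0 of 7 tested members passed a p adjusted over all 13950 genes (0.00717% of genes did), so none of these differences is called at that limit. At an unadjusted p under 0.05, 3 of 7 were higher in Rip-B7xAI4, against 5.56% of all genes tested, and 0 were lower, against 3.17%. For 4 of 7 the lowest Rip-B7xAI4 array exceeded the highest AI4 array, against 5.99% of all genes, and for 0 the reverse held, against 11.9%. After quantile normalization, which makes the spread of all arrays alike, the count of 4 was 3. The share of all genes is not given for that setting. The median log2 difference of the tested members was 0.68, and that of all genes tested -0.10. These shares describe a list hand-picked with earlier results of these data known, and carry no test of the list.

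**Figure D1:**
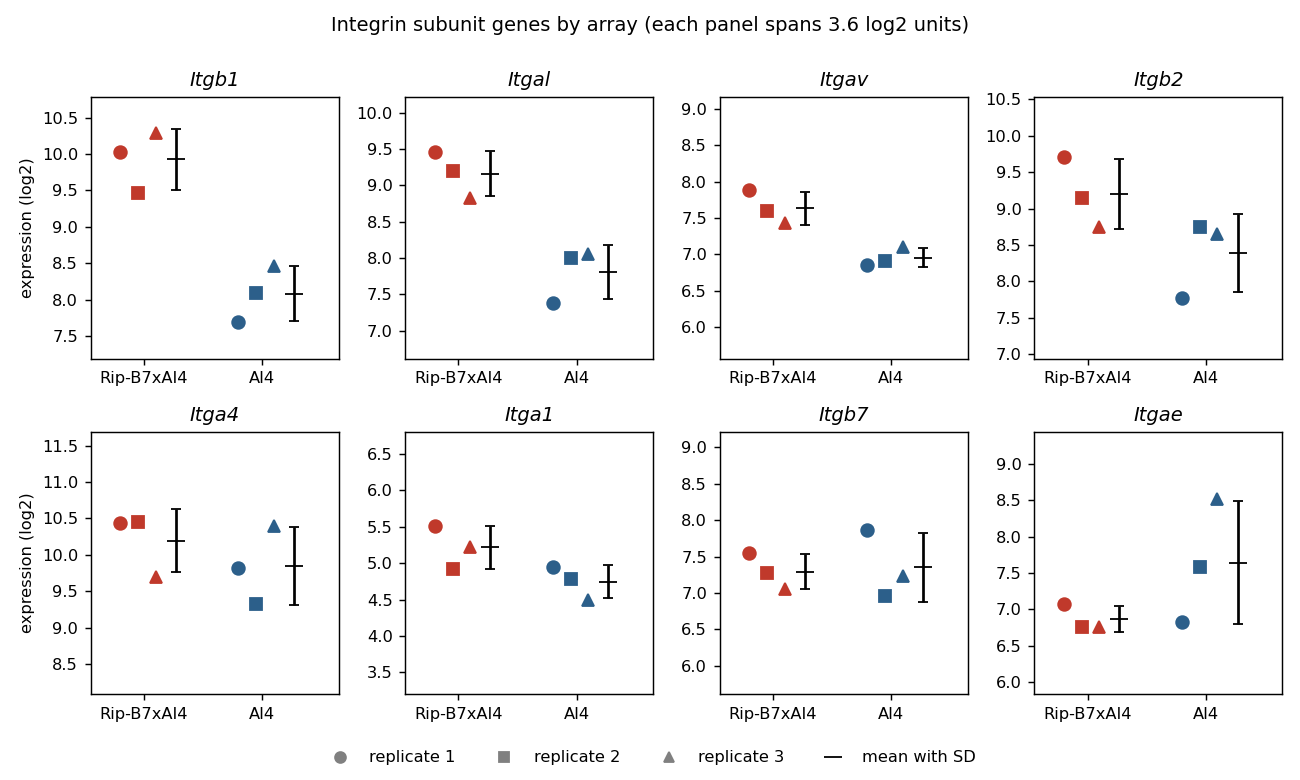
Log2 expression of the 8 integrin subunit genes (vertical axis, each panel spanning the same number of log2 units) in the 3 Rip-B7xAI4 arrays (red, left) and the 3 AI4 arrays (blue, right), with the symbol giving the replicate and the black bar the group mean with its SD. All red points lie above all blue ones for Itgb1, Itgal, Itgav and, by a narrow margin, Itgb2; the other panels overlap.

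Itgb1 encodes the beta chain of the VLA family, which binds matrix proteins and VCAM-1. Itgb1 (probe 10576661) was at 10.03, 9.47 and 10.28 log2 in Rip-B7xAI4 replicates 1 to 3, against 7.70, 8.09 and 8.46 in AI4. The groups were apart by 1.01 between the lowest Rip-B7xAI4 and the highest AI4 array. Group means were 9.93 ± 0.42 in Rip-B7xAI4 and 8.08 ± 0.38 in AI4 (SD, n = 3 each). The log2 difference was 1.85 ± 0.29 (SE), with a 95% interval of 1.15 to 2.54. In limma its unadjusted p was 0.000451, the 37th lowest of 13950, and its adjusted p was 0.170. Rip-B7xAI4 replicate 2, the array with the low myeloid marker mean, was the lowest of its group. Without the myeloid-high arrays the difference was 1.39 ± 0.38 (SE).

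Itgal encodes the alpha chain of LFA-1, which leukocytes carry. Itgal (probe 10557591) was at 9.45, 9.20 and 8.83 in Rip-B7xAI4, against 7.39, 7.99 and 8.06 in AI4. The lowest Rip-B7xAI4 array stood 0.77 above the highest AI4 array. Group means were 9.16 ± 0.31 in Rip-B7xAI4 and 7.81 ± 0.37 in AI4 (SD, n = 3 each), a log2 difference of 1.35 ± 0.26 (SE) with a 95% interval of 0.72 to 1.97. In limma its unadjusted p was 0.00148 and its adjusted p 0.228. Itgal was lowest in replicate 3 of Rip-B7xAI4, while the myeloid marker mean was lowest in replicate 2. Without the myeloid-high arrays the difference was 1.38 ± 0.37 (SE). Replicate 2, the Rip-B7xAI4 array then left, had neutrophil and NK marker means above every AI4 array. The part of these markers in the difference was not tested.

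Itgb2 (CD18) is the beta chain of LFA-1 and of the myeloid integrins built on Itgam and Itgax. Itgb2 (probe 10364262) was at 9.71, 9.14 and 8.75 in Rip-B7xAI4, against 7.77, 8.74 and 8.65 in AI4. Rip-B7xAI4 replicate 3 and AI4 replicate 2 were only 0.0049 apart, and AI4 replicate 1 was the low array. The log2 difference was 0.81 ± 0.35 (SE), with a 95% interval of -0.03 to 1.65, and it did not pass (unadjusted p = 0.0561 and adjusted p = 0.566 in limma). Leaving out AI4 replicate 1 gave 0.50, and leaving out replicate 1 of Rip-B7xAI4 gave 0.56. In limma the unadjusted p was 0.0465 when AI4 replicate 2 was left out and 0.0327 when replicate 3 of Rip-B7xAI4 was.

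Itgav is the alpha chain that pairs with several beta subunits and binds proteins of the RGD type. Itgav (probe 10473281) was at 7.88, 7.59 and 7.43 in Rip-B7xAI4, against 6.86, 6.91 and 7.11 in AI4. The groups were 0.33 apart at their nearest arrays. Means were 7.64 ± 0.23 in Rip-B7xAI4 and 6.96 ± 0.13 in AI4 (SD, n = 3 each). The log2 difference was 0.68 ± 0.19 (SE), with a 95% interval of 0.23 to 1.12, an unadjusted p of 0.00911 and an adjusted p of 0.462 in limma. Without the myeloid-high arrays it was 0.64 ± 0.26 (SE), with an unadjusted p of 0.0638 in limma.

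Itga4 pairs with Itgb1 or with Itgb7. Itga4 (probe 10473125) was at 10.43, 10.45 and 9.69 in Rip-B7xAI4, against 9.82, 9.33 and 10.39 in AI4. The ranges largely overlapped. The log2 difference was 0.35 ± 0.34 (SE), with a 95% interval of -0.46 to 1.15 and an adjusted p of 0.672 in limma. Single arrays moved it: leaving out 1 array gave 0.22 without replicate 1 or 2 of Rip-B7xAI4, 0.60 without replicate 3, 0.09 without AI4 replicate 2 and 0.62 without AI4 replicate 3. Itgb7, the beta chain of the gut-homing and epithelial integrins, was at 7.55, 7.27 and 7.06 in Rip-B7xAI4, against 7.87, 6.95 and 7.23 in AI4. Its lowest and highest arrays were both AI4. The log2 difference of Itgb7 (probe 10432957) was -0.06 ± 0.28 (SE), with a 95% interval of -0.72 to 0.60 and an adjusted p of 0.934 in limma. Its sign is not settled, since it turned positive when each array was centred on its median (0.00904).

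Itgae (CD103) is a marker of T cells that stay in epithelium. Itgae (probe 10378286) was at 7.08, 6.76 and 6.76 in Rip-B7xAI4, against 6.83, 7.58 and 8.51 in AI4. The Rip-B7xAI4 arrays lay close together and the AI4 arrays spread over 1.69 log2 units, with AI4 replicate 1 inside the Rip-B7xAI4 range. Means were 6.87 ± 0.18 in Rip-B7xAI4 and 7.64 ± 0.85 in AI4 (SD, n = 3 each). The log2 difference was -0.77 ± 0.41 (SE), with a 95% interval of -1.76 to 0.21 and an adjusted p of 0.582 in limma. It depended on single AI4 arrays: it was -1.18 without AI4 replicate 1 (unadjusted p = 0.0106 in limma) and -0.34 without AI4 replicate 3. Itga1 (CD49a), a collagen receptor chain used as a residence marker, was dim and left out of the test. It was at 5.51, 4.92 and 5.22 in Rip-B7xAI4, against 4.94, 4.79 and 4.50 in AI4, below the median of its array in every case. Its groups overlapped by the small margin between Rip-B7xAI4 replicate 2 and AI4 replicate 1. With no filter on dim genes limma gave a difference of 0.47 ± 0.21 (SE) and an adjusted p of 0.613.

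**Figure D2:**
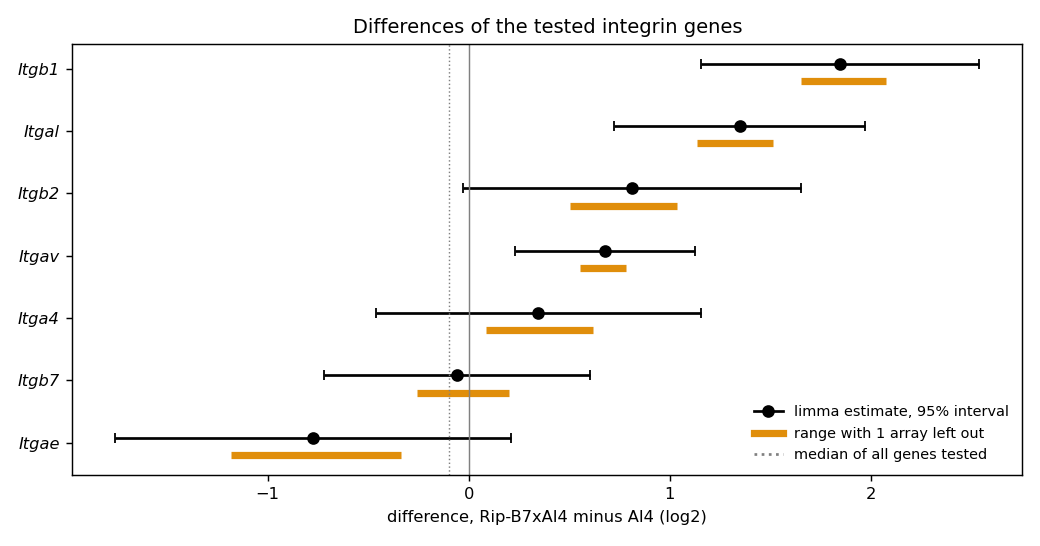
Log2 difference, Rip-B7xAI4 minus AI4 (horizontal axis), of the 7 tested integrin genes; black points are limma estimates with 95% intervals, orange bars the range when 1 of the 6 arrays is left out, and the dotted line the median of all genes tested at -0.10. The intervals of Itgb1, Itgal and Itgav lie above 0, and the others include 0.

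Subunits were also set against each other. Within each array the log2 value of one subunit was subtracted from that of another, which removes any difference between arrays that acts on both alike. These 5 ratios were picked after the values had been seen, and an exact two-sided permutation test with 3 arrays a group cannot give a p below 0.10. The ratio of Itgb1 to Itgb7, the alternative partners of Itga4, was higher in Rip-B7xAI4 by 1.90 ± 0.55 (SE) on the log2 scale. The ratio of Itgb1 to Itga4 was higher by 1.50 ± 0.53 and that of Itgal to Itgb2 by 0.53 ± 0.15. The ratio of Itgal to Itgae was higher by 2.12 ± 0.34. In these 4 ratios the groups did not overlap, and each had the smallest possible p of 0.10 by the exact permutation test, 0.125 adjusted over the 5. That adjustment does not cover the pairs of members that were not picked. Itgb1 and Itgal had already separated the groups by themselves, so no conclusion is drawn from these p values. The ratio of Itgb7 to Itgae was higher by 0.72 ± 0.70 and overlapped (exact permutation p = 0.40).

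Of the other 19 subunit genes, 16 were tested; 0 passed adjusted over all genes, 1 was higher (against 5.56% of all genes tested) and 0 were lower (against 3.17%) at an unadjusted p under 0.05 in limma, so the count is near the background, and their median difference was -0.01. The count of higher genes was 3 when replicate 2 of Rip-B7xAI4 was left out and also with a replicate block. In these settings 7.81% and 7.12% of all genes passed in either direction. The 1 was Itgax (CD11c), an Itgb2 partner known from dendritic cells and also carried by some activated CD8 T cells. Itgax was at 7.29, 6.73 and 7.10 in Rip-B7xAI4, against 5.29, 5.86 and 5.68 in AI4. Each Rip-B7xAI4 array, the one with the low myeloid marker mean included, exceeded the AI4 arrays, and every AI4 value was below the median of its array. That Rip-B7xAI4 array, replicate 2, also exceeded every AI4 array in Cd68, Cd74 and the neutrophil and NK marker means. The part of these markers in the Itgax difference was not tested beyond the settings given here. The log2 difference was 1.43 ± 0.23 (SE), with an unadjusted p of 0.000553 and an adjusted p of 0.179 in limma. Without the myeloid-high arrays it was 1.12 ± 0.33, and with a myeloid covariate (the mean of those markers in each array) 1.21 ± 0.32.

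Itgam (CD11b), the Itgb2 partner of macrophages and neutrophils, had another pattern. Itgam was at 8.87, 5.44 and 6.85 in Rip-B7xAI4, against 6.00, 5.20 and 5.61 in AI4. Only Rip-B7xAI4 replicates 1 and 3 stood above AI4, the arrays in which the myeloid marker mean was also high. Its log2 difference was 1.45 ± 0.80 (SE; adjusted p = 0.583 in limma), and -0.16 without those 2 arrays. Leaving out Rip-B7xAI4 replicate 1 alone gave 0.54 and replicate 2 alone 2.26. Itga6, a laminin receptor chain, was at 8.60, 6.67 and 6.85 in Rip-B7xAI4, against 6.18, 5.91 and 6.55 in AI4, a difference of 1.16 ± 0.52 that did not pass. Replicate 1 of Rip-B7xAI4 stood out, and the difference of Itga6 was 0.55 without it and 0.45 without the myeloid-high arrays. In limma the unadjusted p of Itgam was 0.0329 and that of Itga6 0.0437 with a replicate block, and 0.0102 and 0.0298 without Rip-B7xAI4 replicate 2. Itga11 and Itgb3 differed by -0.28 ± 0.16 and -0.29 ± 0.22 and did not pass either, and Itgb3 was at -0.17 without Rip-B7xAI4 replicate 3 and -0.45 without AI4 replicate 2.

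**Figure D3:**
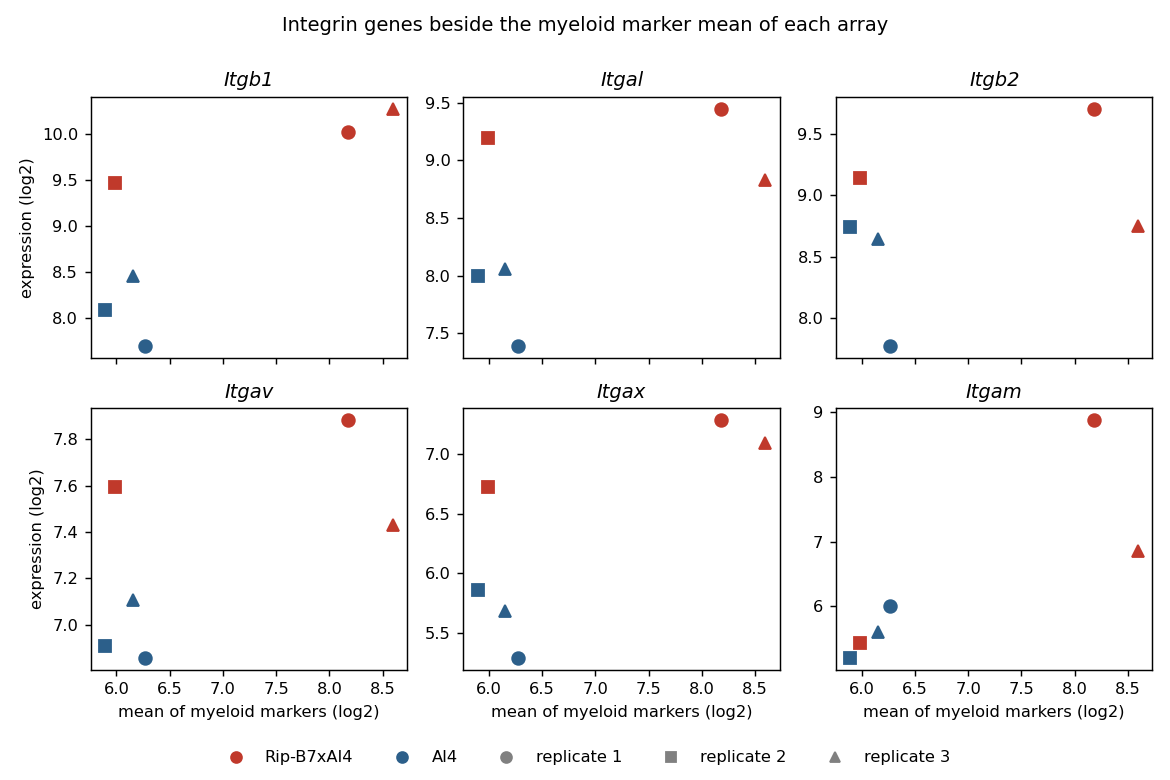
Log2 expression of 6 integrin genes (vertical axes) against the mean of 24 myeloid markers (horizontal axis) in each array, with Rip-B7xAI4 in red, AI4 in blue and the symbol giving the replicate. Rip-B7xAI4 replicate 2, whose myeloid mean of 5.99 lies within the AI4 range, is above all AI4 arrays for Itgb1, Itgal, Itgb2, Itgav and Itgax and among them for Itgam.

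Itgb1 and Itgam were both highest in the myeloid-high arrays, and the part of these markers in the differences was not tested beyond leaving the arrays out and fitting a covariate. With the same covariate Itgb1 differed by 1.44 ± 0.35 (SE), Itgal by 1.46 ± 0.38, Itgav by 0.67 ± 0.29 and Itgb2 by 0.90 ± 0.51. In limma the unadjusted p was then 0.00649 for Itgb1, 0.00879 for Itgal, 0.0586 for Itgav and 0.132 for Itgb2.

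Intracellular proteins that switch integrins on or tie them to actin were tested for 31 of 36 listed genes. At an unadjusted p under 0.05 in limma 3 were higher (against 5.56% of all genes) and 0 lower (against 3.17%), none passed adjusted over all genes, and the list median was 0.02. The count of lower genes depended on the setting: it was 3 without AI4 replicate 1, 2 with quantile normalization and 2 with array weights. The 3 were Itgb1bp1, Ilk and Flna. Itgb1bp1 (ICAP-1), which binds the tail of the Itgb1 protein, was at 8.84, 8.28 and 8.61 in Rip-B7xAI4, against 7.81, 7.32 and 7.95 in AI4. Ilk, the kinase-like scaffold that links beta tails to actin, was at 7.97, 7.78 and 7.26 in Rip-B7xAI4, against 5.74, 6.80 and 6.88 in AI4. Flna (filamin A), an actin crosslinker that also binds beta tails, was at 8.83, 8.36 and 8.43 in Rip-B7xAI4, against 6.92, 7.50 and 8.15 in AI4. In all 3 the Rip-B7xAI4 arrays lay above the AI4 arrays, with log2 differences of 0.89 ± 0.24 (SE), 1.20 ± 0.36 and 1.02 ± 0.33 and adjusted p of 0.462, 0.478 and 0.509 in limma. Without the myeloid-high arrays 0 of the list were higher at an unadjusted p under 0.05, against 5 without replicate 3 of Rip-B7xAI4 and 5 without AI4 replicate 3, and the differences were 0.59 ± 0.35, 1.31 ± 0.54 and 0.83 ± 0.53 in the same order. Flna had an unadjusted p of 0.0651 in limma without Rip-B7xAI4 replicate 1. Tln1 (talin) and Fermt3 (kindlin-3), which activate integrins directly and were picked after their values had been seen, differed by 0.06 ± 0.16 (95% interval -0.31 to 0.44) and -0.06 ± 0.17 (-0.47 to 0.35). Ptk2b (Pyk2), a kinase downstream of integrins, differed by 1.04 ± 0.45 and Dok1, an adaptor that competes with talin, by -0.35 ± 0.18, and neither passed. Ptk2b was at 0.59 without AI4 replicate 1 and at 1.45 without AI4 replicate 3, and its unadjusted p in limma was 0.0108 without the second of these and 0.0447 without Rip-B7xAI4 replicate 3.

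Membrane proteins that sit beside integrins were tested for 13 of 15 listed genes, of which 3 were higher (against 5.56% of all genes) and 0 lower (against 3.17%) at an unadjusted p under 0.05 in limma, 0 passed adjusted over all genes, and the median was 0.07. They were the tetraspanins Cd9 and Cd81 and the hyaluronan receptor Cd44, with log2 differences of 1.12 ± 0.34 (SE), 0.95 ± 0.33 and 1.26 ± 0.42. Cd44, a marker of antigen-experienced T cells, was at 8.26, 6.78 and 7.94 in Rip-B7xAI4, against 6.83, 5.98 and 6.39 in AI4. All 3 genes had their highest values in the myeloid-high arrays. Without those arrays the differences were 0.53 ± 0.30, 0.23 ± 0.27 and 0.38 ± 0.40 in the same order, and 0 of the list were higher at an unadjusted p under 0.05, where 4.40% of all genes passed in either direction. That count was 1 when any of replicate 1 or 3 of Rip-B7xAI4 or replicate 2 of AI4 was left out. Cd47, a partner of beta subunits, differed by 0.62 ± 0.30 and the tetraspanin Cd53 by -0.33 ± 0.31, and neither passed. Cd53 was at -0.0300 without Rip-B7xAI4 replicate 3 and at -0.62 without replicate 1, and Cd47 was at 0.95 without replicate 2 (unadjusted p = 0.00454 in limma).

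Ligands of these integrins are made mainly by other cells, and 17 of 20 listed genes were tested. At an unadjusted p under 0.05 in limma 0 were higher (against 5.56% of all genes) and 0 lower (against 3.17%), so the counts are near the background. The median was -0.17. Leaving out replicate 2 of Rip-B7xAI4 gave 2 higher, where 7.81% of all genes passed in either direction. Leaving out AI4 replicate 3 gave 2 lower, where 11.2% of all genes passed. Icam1, the LFA-1 ligand, was at 7.31, 7.57 and 7.66 in Rip-B7xAI4, against 7.26, 7.52 and 7.11 in AI4, a log2 difference of 0.22 ± 0.19 (SE). Cdh1 (E-cadherin), the ligand of Itgae, differed by -0.23 ± 0.18. Fn1 (fibronectin), picked after its values had been seen, was at 11.13, 5.59 and 8.88 in Rip-B7xAI4, against 6.88, 5.95 and 7.03 in AI4, highest in the myeloid-high arrays. Vcam1 was at 6.23, 5.24 and 9.79 in Rip-B7xAI4, against 5.56, 6.10 and 5.43 in AI4, and stood out in 1 array. Thbs1 differed by 1.13 ± 0.64, Col3a1 by -0.37 ± 0.20, Lama5 by -0.35 ± 0.19, Icam5 by -0.31 ± 0.20 and Col4a1 by -0.29 ± 0.19, and none of these passed. Thbs1 was at 0.34 without Rip-B7xAI4 replicate 1, where it was highest, and at 0.0612 without the myeloid-high arrays, and without replicate 2 it was at 1.66 (unadjusted p = 0.0324 in limma). Without AI4 replicate 1 Icam5 was at -0.18 and Col4a1 at -0.16, and without AI4 replicate 3 the unadjusted p in limma was 0.0480 for Col3a1 and 0.0407 for Lama5. The ligand B7x itself (Vtcn1) was at 6.33, 6.13 and 6.23 in Rip-B7xAI4, against 6.28, 5.92 and 6.09 in AI4, and these overlapped.

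**Figure D4:**
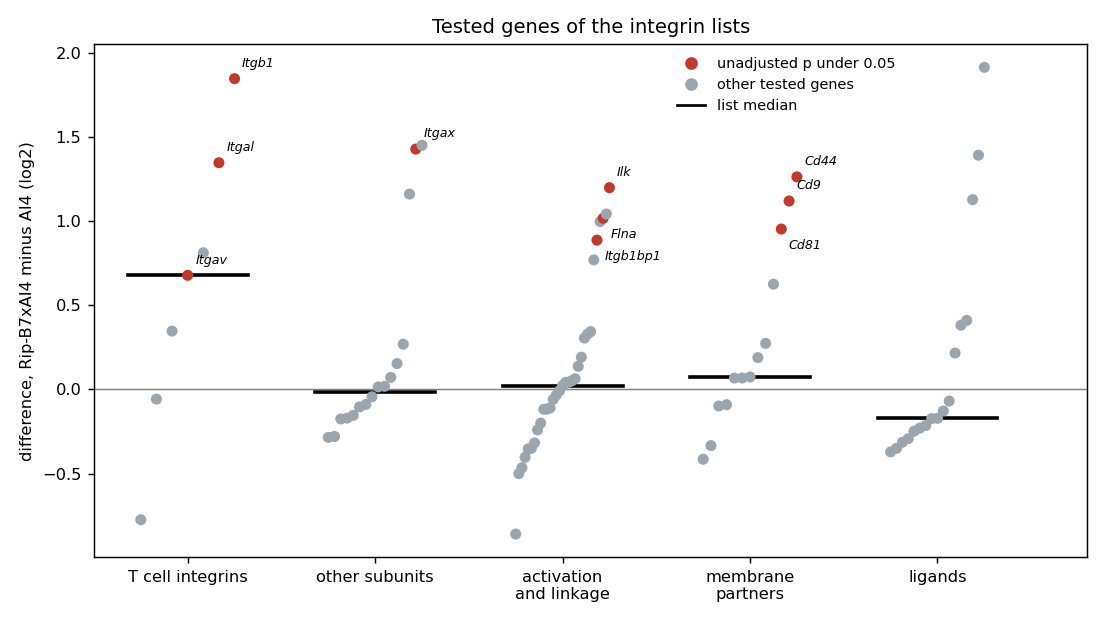
Log2 difference, Rip-B7xAI4 minus AI4 (vertical axis), of every tested gene in 5 lists (horizontal axis), ordered by size within a list; red points have an unadjusted p under 0.05 in limma and are named, and black lines are list medians. The median is 0.68 for the T cell integrins and between -0.17 and 0.07 for the other 4 lists.

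The genes most like 3 of the members across the 6 arrays were sought among all tested genes by Pearson's r, as a description of 6 points that share their group structure. Itgb1 was most like Clic4 (r = 0.994), a chloride intracellular channel protein, then Rtn4ip1 (0.989) and Ncoa7 (0.988). Clic4 was at 8.75, 8.42 and 9.34 in Rip-B7xAI4, against 6.04, 6.70 and 6.94 in AI4, with replicate 3 highest in both groups as for Itgb1. Itgal was most like Selenos (0.993), Ywhah (0.993), a 14-3-3 protein, and Tbcb (0.991), a tubulin folding cofactor. Itgae was most like Insyn2b (0.992), Smg6 (0.989) and Gpx2 (0.979), and it shared with all 3 a highest value in AI4 replicate 3. Itga1, which the rule also covered, was too dim.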

How the data were processed

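RNA from sorted AI4 T cells was labelled with biotin and hybridised to 6 single-colour arrays. The authors processed these in Affymetrix Expression Console, per the submitters' processing notes; no version or summarisation method is given in the sources used here. The deposited values are 1 number per probe and array, taken as log2 from their range, and were used as deposited. Probes were named through the platform annotation: 21760 of 28325 had 1 gene symbol, 1621 several (not used) and 4944 none. Of the probes of a gene the one with the highest mean was kept. The 30% of genes with the lowest mean (limit 5.471 log2) were not tested, which left 13950.

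Groups came from titles. Differences were fitted with limma 3.58.1 (lmFit, eBayes, R 4.3.3), two-sided, with Benjamini-Hochberg adjustment over all tested genes and a limit of 0.05. No background measure was used, so dim values have no known distance from background, and 3 arrays per group limit precision. In bulk RNA, fewer cells of a type and less RNA per cell cannot be told apart. The members, lists and the rule for named genes (all members, up to 5 genes of each integrin list by p, preset marker genes and the 3 genes most like a member) were chosen with earlier results of these data known. The alternatives were a replicate block, leaving out arrays, a myeloid covariate, 2 scalings, 2 filters, probe means, trend and robust eBayes, and array weights. The fit was also run on 10 simulated sets of 13950 genes, with 200 genes changed. It recovered 17.4% of genes changed by 1 log2 unit and 87.4% of those changed by 2, with 5.24% false calls. In the data 1 gene passed, and Clic4, with a difference of 2.28, had an adjusted p of 0.157 in limma. The simulated shares therefore do not say how many changes of these sizes the fit finds in the data.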

Additional observations from a re-analysis of the deposited data

How the results depend on the processing

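Under all 16 alternatives 0 members passed the adjusted limit in limma (the count at an unadjusted p under 0.05 was 3, with 2 to 4 higher members over the alternatives). The share of all genes past that unadjusted limit, in either direction, was 8.73% and moved from 4.24% with the myeloid covariate to 17.2% with array weights. Equal counts of members therefore stand against unlike backgrounds. The 16 are not independent checks, since each refits the same arrays or a part of them. The replicate block, the 2 filters, the probe means and trend and robust eBayes left each member's difference unchanged and altered only its SE and p. Itgb1 differed by 1.39 to 2.07 and Itgal by 1.13 to 1.51, each with an unadjusted p under 0.05 in 16 of 16, and adjusted p of 0.0774 to 0.926 and 0.0762 to 0.925. Itgav stayed between 0.55 and 0.78, with an unadjusted p under 0.05 in 14 of 16, and the median of the members was 0.50 to 0.78. The sign of Itgb7 was not settled: it was 0.00904 with median centring, 0.16 with array weights and -0.26 to 0.20 with 1 array left out. Lower members at an unadjusted p under 0.05 numbered 1 (Itgae) with array weights and 0 to 1 with 1 array left out. The interquartile range of all probes was 2.13, 1.935 and 1.81 in Rip-B7xAI4 replicates 1 to 3, and 1.71, 1.76 and 1.95 in AI4. With quantile normalization Itgb1 differed by 1.61, Itgal by 1.13, Itgb2 by 0.57, Itgav by 0.56 and Itga4 by 0.11. Itgb7 was then at -0.20 and Itgae at -0.87.

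Over all genes, 1 passed the adjusted limit, against 38 with array weights, 0 with the replicate block, the myeloid covariate or without Rip-B7xAI4 replicates 1 and 3 together, and 0 to 22 with 1 array left out, the 22 without Rip-B7xAI4 replicate 2. At an unadjusted p under 0.05 there were 1218, against 2399 with array weights, 592 with the covariate, 614 without Rip-B7xAI4 replicates 1 and 3 together, and 765 to 1557 with 1 array left out. The higher share of these was 63.7%, 75.0% with median centring and 54.1% after quantile normalization. It was 81.4% with the myeloid covariate, 52.1% with array weights and 60.4% to 75.6% with 1 array left out. Without Rip-B7xAI4 replicates 1 and 3 together Itgam differed by -0.16, Cd47 by -0.0204, Lyz2 by -0.96 and Vcam1 by -0.45, and with the covariate Lyz2 by -0.67 and Vcam1 by -0.48. The cause of these changes was not tested.

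Replicate numbers are shared between the groups, but the labels do not say that they pair samples. For that reason the main fit took no pairs. Over all tested genes, deviations of same-numbered arrays from their group means correlated at -0.08, 0.06 and -0.22. These correlations cannot settle whether single genes share a replicate structure. The block lowered the SE of Lyz2 from 1.51 to 0.60 and that of Itgam from 0.80 to 0.51. It raised the SE of Itgal from 0.26 to 0.31. With the replicate block Itgb1 differed by 1.85 (adjusted p = 0.242 in limma) and Itgal by 1.35 (0.459), and 993 genes had an unadjusted p under 0.05.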
